A study of Mus musculus with 18 samples.

Results

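The cytotoxic granule genes studied here were Gzmb, Gzma, Gzmk, Prf1, Nkg7, Srgn and Lamp1, 7 genes picked by symbol from the 15402 genes of the expression table. All 7 were in the table, and 6 of them were among the 13190 genes tested, while Gzmk was too low to be tested. Foxp3-Tocky mice report transcription of Foxp3, the transcription factor of regulatory T cells (Treg), by a Timer protein that is first blue and then matures to red. RNA was sequenced from 6 T-cell populations sorted from the lymph nodes draining the skin 5 days after 3% oxazolone, a contact sensitiser, had been applied, with 3 libraries per population and 18 in all. The female mice carried both the Foxp3 Timer transgene and a Foxp3-IRES-GFP allele on a C57/BL6 background, mice were aged 5 to 10 weeks at sensitisation per the study's methods, every mouse had been sensitised, and each library came from a pool of 3 mice. Timer-negative cells, which the labels describe as GFP-negative, were split by CD44, with Tnaive as the CD44lo and Teff as the CD44hi part. Timer-positive cells, described as CD4+GFP+, were sorted as Pers1 (Blue-intermediate Red-low), Pers2 (Blue-high Red-high), PAt (Red-high with low Blue) and Arrested (Red-intermediate with no Blue) cells. The gates rest on the colours of the reporter, in which blue stands for recent transcription, so that Pers1 and Pers2 were gated as persistent expressers and PAt and Arrested as cells with little or no blue. The labels name these 4 populations de novo, maturing, mature and decaying expressers of Foxp3, in that order. There was no untreated group.

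Cytotoxic lymphocytes kill through secretory granules that fuse with the membrane at the contact with the target. Perforin (Prf1) forms pores, through which granzymes, serine proteases stored in the granule, enter the target and cleave its proteins. Serglycin (Srgn) is the proteoglycan that packs granzymes and perforin in the granule. Nkg7 is a granule membrane protein that takes part in degranulation. Lamp1 (CD107a) is a membrane protein of all lysosomes that shows on the cell surface after degranulation. Granzyme B is best known from CD8 T cells and NK cells, and activated Treg can make it too.

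In GENCODE annotation of GRCm38, which is the build (mm10) that the authors aligned to, Gzmb (chr14:56258838-56262260) lay on the minus strand of chromosome 14 together with Gzmc, Gzmf and further granzyme genes. Gzma (chr13:113093825-113100981) and Gzmk (chr13:113171608-113225908) lay near each other on the minus strand of chromosome 13. Prf1 (chr10:61297833-61304680, plus strand) and Srgn (chr10:62493833-62527451, minus strand) were both on chromosome 10. Nkg7 (chr7:43437073-43438249) and Lamp1 (chr8:13159161-13175338) were on plus strands. Gzmk overlapped Esm1 by 8440 bp and Lamp1 overlapped Grtp1 by 3317 bp, each on the opposite strand, and whether strand was used in counting is not given in the sources used here. No stretch of 100 bases, the read length, was shared between a transcript of Gzmb, Gzma, Gzmk or Gzmc and a transcript of another granzyme gene of these 2 families, Gzmm included, so that exact reads of these genes could be told apart.

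The promoters of the 4 genes whose levels moved most between populations are shown next, so that their sequences can be read against the levels described afterwards. Each is the RefSeq window from 250 bases before to 50 bases after a RefSeq start of the gene in GRCm38.p6, printed along the strand of the gene. Distances below are counted from this RefSeq start, which can differ from the GENCODE start of the gene. The Gzmb window lay wholly upstream of the GENCODE span given above. The RefSeq start of Nkg7 lay inside its GENCODE span, as did that of Gzmk, far from the GENCODE start. The windows are chr14:56262285-56262584 (minus) for Gzmb, chr10:62527396-62527695 (minus) for the first of 2 Srgn windows, chr7:43436888-43437187 (plus) for Nkg7 and chr10:61297586-61297885 (plus) for Prf1. Capitals mark matches to motifs that were searched for on both strands.
Gzmb: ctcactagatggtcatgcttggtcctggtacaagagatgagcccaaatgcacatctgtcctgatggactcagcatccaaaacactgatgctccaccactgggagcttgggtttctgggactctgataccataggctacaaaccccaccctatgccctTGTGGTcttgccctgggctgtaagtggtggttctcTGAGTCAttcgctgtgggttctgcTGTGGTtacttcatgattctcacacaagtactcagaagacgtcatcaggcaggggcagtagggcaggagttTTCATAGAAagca
Srgn: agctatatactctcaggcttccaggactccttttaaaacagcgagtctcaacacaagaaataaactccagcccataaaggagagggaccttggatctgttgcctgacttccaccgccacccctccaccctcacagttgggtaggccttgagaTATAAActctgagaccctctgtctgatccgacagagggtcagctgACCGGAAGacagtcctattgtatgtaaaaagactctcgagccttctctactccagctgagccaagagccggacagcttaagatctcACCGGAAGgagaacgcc
Nkg7: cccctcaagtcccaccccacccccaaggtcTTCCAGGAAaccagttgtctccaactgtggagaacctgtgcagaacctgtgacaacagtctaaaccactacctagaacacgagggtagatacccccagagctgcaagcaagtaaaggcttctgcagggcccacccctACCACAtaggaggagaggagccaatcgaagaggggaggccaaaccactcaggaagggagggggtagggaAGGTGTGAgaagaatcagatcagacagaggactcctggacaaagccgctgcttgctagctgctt
Prf1: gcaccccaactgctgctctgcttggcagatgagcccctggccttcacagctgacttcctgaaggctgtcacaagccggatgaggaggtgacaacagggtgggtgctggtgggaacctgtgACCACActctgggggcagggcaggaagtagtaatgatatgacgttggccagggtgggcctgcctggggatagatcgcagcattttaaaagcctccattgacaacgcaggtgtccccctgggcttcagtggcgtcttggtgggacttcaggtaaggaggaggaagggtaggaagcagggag

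The Runx core TGTGGT was found in 6 of the 8 windows of the 7 genes, and in 16.8% of all 32851 RefSeq windows. It lay 93 and 34 bases before the start of Gzmb, 83 before Nkg7 and 130 before Prf1, and it also occurred in the windows of Gzma, Lamp1 and the second window of Srgn. The AP-1 motif TGANTCA was found in Gzmb alone among the 7 genes, 58 bases before the start (7.81% of all windows). The T-box motif AGGTGTGA was found in Nkg7 alone, 14 bases before the RefSeq start and inside the GENCODE span of the gene (1.28% of all windows). The first Srgn window held the Ets motif ACCGGAAG on both sides of the start, 53 bases before and 34 bases after it (2.3% of all windows), and the TATA motif TATAAA 98 bases before it (13.6% of all windows). TTCNNNGAA, a STAT motif, occurred in Nkg7, 220 bases before the start, and in Gzmb, 38 bases after it (8.3% of all windows). The CRE motif TGACGTCA (1.79% of all windows) and the Blimp-1 motif AAGTGAAA (1.6% of all windows) had no match in any of the 8 windows, and Gzmk had no match of any kind. A match of letters describes these windows only. The motifs were chosen after the levels had been seen.

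All levels below are log2 normalised counts as the authors deposited them, and a fold change is a difference of mean log2 levels. A difference was called when its Benjamini-Hochberg adjusted p over all tested genes was under 0.05 and its log2 fold change was over 1 in size. Adjusted p-values are from limma, fitted to all 18 libraries. Depth per library is unknown, as the table holds no counts, so only the spread among the 3 libraries of a population shows how precise a value is. In these bulk samples, fewer cells that express a gene and less RNA per cell cannot be told apart. The deposited values have the form of a regularised log transform, which draws differences of genes with few reads, such as Gzmk and Gzma, towards 0.

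The T-cell markers Cd3e and Cd4 were high in every population (Cd3e means from 13.66 to 13.87, Cd4 means from 14.49 to 15.67). Foxp3 means were 14.42 to 14.82 in the Timer-positive populations, against 11.34 in Tnaive and 10.54 in Teff, and the Cd44 mean was 9.61 in Tnaive and 13.05 in Teff. Foxp3 RNA itself differed little among the Timer-positive populations, by a log2 fold change of 0.24 (SE 0.05, adjusted p = 1.4e-04) between the persistent cells and PAt with Arrested and of -0.10 (SE 0.07, adjusted p = 0.453) between Arrested and PAt. The names of the gates are therefore used here for the Timer colours and not for the level of Foxp3 RNA. Markers of several other cell types were higher in Teff than in any other population. The summed level of the 8 NK cell markers in the table was 10.37 to 10.67 in Teff, 9.28 to 9.53 in Tnaive, where Eomes made up most of it, and 7.63 to 8.03 in the Timer-positive libraries. Among them Tyrobp was 9.55 in Teff and 4.46 to 4.89 elsewhere, and Ncr1, which defines NK cells, was 4.14 in Teff and 2.76 to 2.84 elsewhere. The 2 CD8 T cell markers, Cd8a and Cd8b1, summed to between 11.511 and 11.997 in Teff and to 9.65 to 10.70 elsewhere. The 7 plasmacytoid dendritic cell markers summed to 12.89 to 13.35 in Teff and 11.15 to 11.92 elsewhere, with Siglech at 10.62 in Teff and 3.58 to 4.30 elsewhere. The 5 macrophage or monocyte markers in the table summed to 10.26 to 10.58 in Teff and 7.93 to 9.59 elsewhere, although Cd14 was at 0.46 to 0.55 in all populations. Itgam, also of this list, was at 8.33 in Teff, below Tnaive (8.44) and Pers1 (8.88). The 5 B cell markers summed to 11.48 to 12.15 in Teff, 11.60 to 11.83 in PAt, 11.22 to 11.51 in Arrested, 10.47 to 10.74 in the persistent populations and 9.48 to 9.90 in Tnaive. The 2 mast cell or basophil markers in the table summed to 5.31 to 6.18 in all populations. NK cells and CD8 T cells carry several of the 7 granule genes as a rule. The part of these cell types in the Teff levels of the granule genes, and of the genes of the lists below, was not tested.

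**Figure D1:**
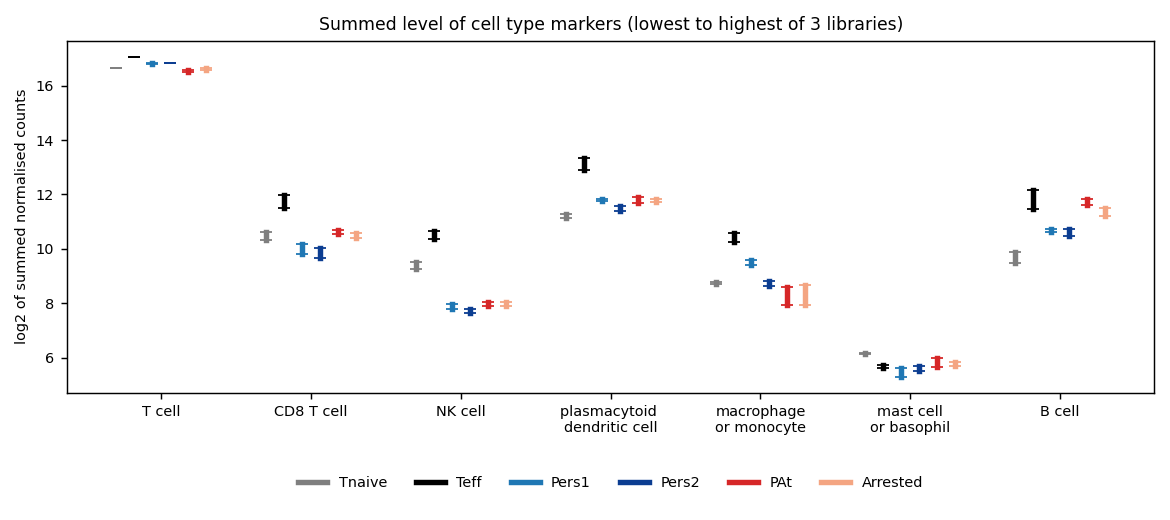
Summed level of the marker genes of 7 cell types (y axis, log2 of summed normalised counts), with a bar from the lowest to the highest of the 3 libraries of each of the 6 populations (colours). Teff (black) lay above the other populations for NK cell, CD8 T cell, plasmacytoid dendritic cell and macrophage markers, while T cell markers were high in all.

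Gzmb, which encodes granzyme B, was the granule gene that differed most between populations. Its log2 level was 12.44, 12.41 and 12.78 in the 3 Pers1 libraries and 13.11, 13.06 and 13.52 in Pers2. In PAt it was 8.25, 7.99 and 7.86, and in Arrested 7.08, 6.87 and 7.60. In the Timer-negative cells it was 6.93, 7.32 and 7.48 in Teff and 5.11, 5.31 and 5.14 in Tnaive. Every persistent library was thus above every other library, with a gap of 4.16 between the lowest Pers library and the highest PAt or Arrested one. The order of means was Pers2, Pers1, PAt, Teff, Arrested and Tnaive, and only the libraries of Teff and Arrested overlapped between neighbours in this order.

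Srgn, the packing proteoglycan, was high in every population and highest in the persistent ones. Its log2 level was 14.87, 14.85 and 14.88 in Pers1 and 14.88, 14.81 and 14.97 in Pers2, which overlapped. It was 14.12, 13.99 and 14.14 in Teff, below every persistent library. PAt libraries were at 13.42, 13.53 and 13.36 and Arrested libraries at 13.49, 13.39 and 13.59, again overlapping. Tnaive libraries, at 12.35, 12.19 and 12.21, were the lowest.

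Prf1, which encodes perforin, had its highest level in Tnaive. There it was 9.5, 9.74 and 9.68, and every other library was lower. Teff libraries were at 7.26, 7.61 and 7.25, Pers1 at 7.47, 7.38 and 7.34, and Pers2 at 7.33, 7.74 and 7.52. PAt libraries were at 7.45, 7.45 and 7.57 and Arrested libraries at 7.60, 8.08 and 8.12. Below Tnaive, each population overlapped with its neighbour in the order of means.

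Nkg7 was low in Tnaive (6.54, 6.60 and 7.25) and high in the 5 other populations. It was 9.45, 9.73 and 9.69 in Teff, 9.13, 9.33 and 9.48 in Pers1 and 9.20, 9.42 and 9.40 in Pers2. PAt libraries were at 9.21, 9.27 and 9.12 and Arrested libraries at 8.97, 8.96 and 8.68. Arrested libraries lay below all PAt ones, and Pers2, Pers1 and PAt overlapped in turn.

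Gzma, which encodes granzyme A, was much lower than Gzmb in the persistent cells and highest in Teff, at 5.85, 6.19 and 5.98. Pers1 libraries were at 5.51, 5.49 and 5.82, below all Teff libraries, and Pers2 libraries at 5.19, 5.14 and 5.48. The libraries of Pers2, Arrested (5.18, 4.68 and 5.19), PAt (5.01, 4.81 and 5.02) and Tnaive (4.63, 4.94 and 4.78) overlapped in turn. Gzmk, which encodes granzyme K, ranged only from 2.75 to 3.34 over the 18 libraries. Its means were 3.19 ± 0.19 (SD, n = 3) in Teff, 3.07 ± 0.10 in Pers1, 2.86 ± 0.05 in Pers2, and 2.81 to 2.83 in the others, and with a mean under 3 it was not tested.

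Lamp1, the general lysosomal protein, varied least of the 6 tested granule genes, from 11.87 to 12.32. It was lowest in Pers2 (11.90, 11.87 and 11.91) and next in Pers1 (11.98, 11.94 and 12.02). Tnaive (12.16, 12.19 and 12.15), Teff (12.13, 12.20 and 12.14), Arrested (12.16, 12.29 and 12.32) and PAt (12.30, 12.32 and 12.26) libraries were all above every persistent library.

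**Figure D2:**
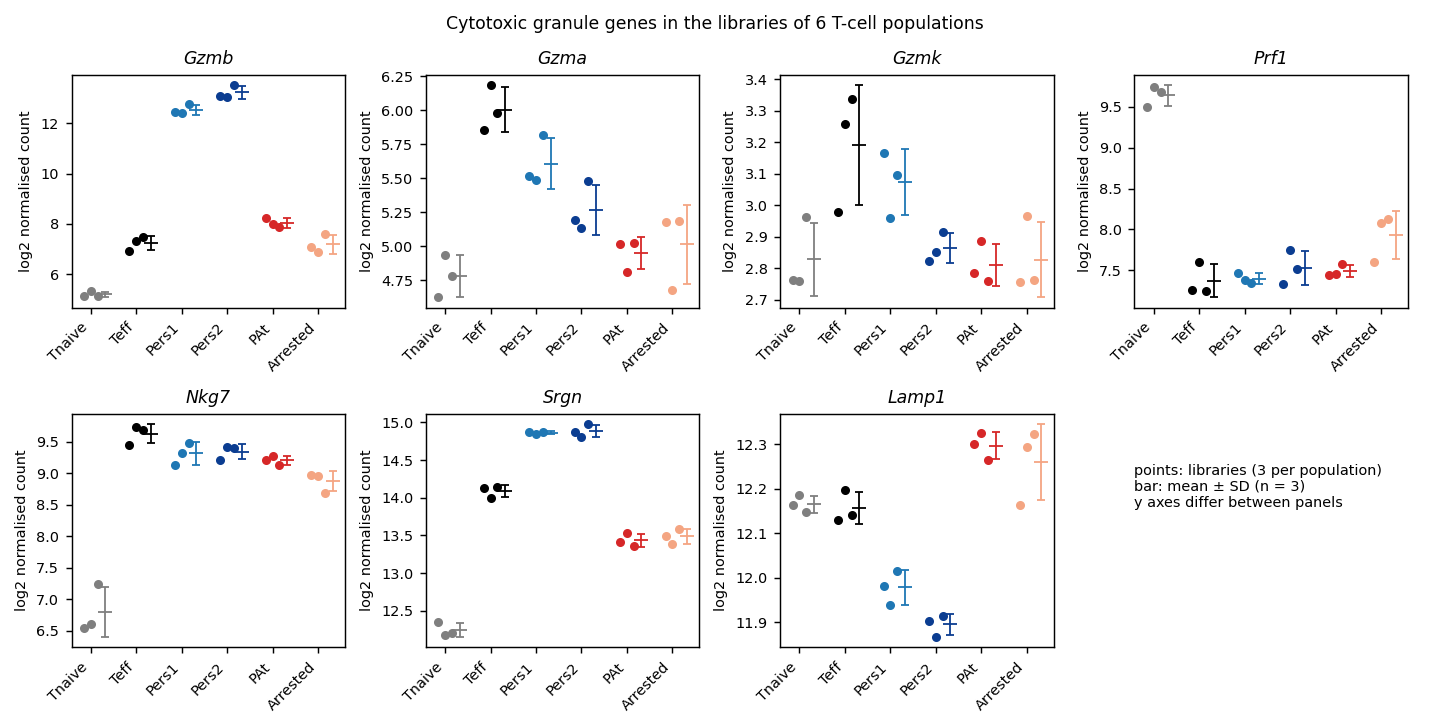
Log2 normalised count (y axis, with a range of its own in each panel) of the 7 cytotoxic granule genes in the 6 populations. Points are the 3 libraries of a population and bars the mean ± SD. Gzmb and Srgn were highest in Pers1 and Pers2, Prf1 was highest in Tnaive, Nkg7 was low in Tnaive alone, and Gzma and Gzmk were highest in Teff.

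To compare levels between genes, the log2 levels were set per kb of exon by subtracting the log2 of the union exon length in kb. Since the transform draws values of genes with few reads together across libraries, ranks within a population are approximate, above all for low genes. On this scale Pers2 cells had Srgn at 13.75 and Gzmb at 12.71, followed by Lamp1 at 10.48, Nkg7 at 9.47, Prf1 at 6.16, Gzma at 5.26 and Gzmk at 2.39. In Tnaive cells the per-kb level of Prf1 (8.27) was above those of Nkg7 (6.93), Gzma (4.77) and Gzmb (4.66), and Srgn (11.11) and Lamp1 (10.75) were the highest. In Teff cells, Gzmb (6.72 per kb), Prf1 (6.00) and Gzma (6.00) were close to each other, below Nkg7 (9.75). In PAt the per-kb level of Gzmb was 7.51 and that of Prf1 6.12, and in Arrested these were 6.66 and 6.56.

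The comparison of Pers1 and Pers2 with PAt and Arrested asks how the granule genes stood in cells gated by Timer colour as persistent expressers of Foxp3 against cells with little or no blue. Of the 6 genes tested, 2 rose and none fell past the thresholds, while 7.51% of all tested genes were called. Gzmb had a log2 fold change of 5.28 (SE 0.12, adjusted p = 2.2e-18), which is 38.9-fold. Srgn had a log2 fold change of 1.41 (SE 0.04, adjusted p = 1.1e-16). The other 4 differences were each under 0.5 in log2. Gzma (0.46, SE 0.10, adjusted p = 4.4e-04), Nkg7 (0.29, SE 0.10, adjusted p = 0.0176) and Prf1 (-0.25, SE 0.10, adjusted p = 0.0291) passed on the adjusted p but not on size, and their libraries overlapped. Lamp1 was at -0.34 (SE 0.03, adjusted p = 8.2e-09), also too small to be called, with all persistent libraries below all PAt and Arrested ones. The median log2 fold change of the 6 genes was 0.37, against -0.01 for all tested genes. Mki67, which marks cycling cells, was also higher in the persistent cells, with means of 14.51 and 14.54 in Pers1 and Pers2 and 11.65 and 11.63 in PAt and Arrested. It was at 12.62 in Teff, above PAt, where Gzmb had the reverse order, and at 8.48 in Tnaive. The part of cycling cells was not tested. Leaving out any 1 library left the Gzmb fold change between 5.204 and 5.387. Markers of other cell types also differed in this comparison. For B cells 3 of 5 tested markers were called lower in the persistent cells (median log2 fold change -1.11). So were 1 of 2 for CD8 T cells and 2 of 7 for plasmacytoid dendritic cells, while 1 of 4 for macrophages was called higher. Their part in this comparison, also for the lists below, was not tested.

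Within the persistent cells, Pers2 against Pers1 (0.19% of tested genes called), no granule gene was called. Gzmb came closest, with a log2 fold change of 0.68 (SE 0.17, adjusted p = 0.0139) and every Pers2 library above every Pers1 one. Gzma was at -0.34 (SE 0.14, adjusted p = 0.145) and Lamp1 at -0.08 (SE 0.05, adjusted p = 0.291), in both cases with every Pers2 library below, while Prf1 (0.13), Nkg7 (0.03) and Srgn (0.02) had overlapping libraries. At an unadjusted limma p under 0.05 there were 2 of the 6 genes, Gzmb and Gzma, beside 24.0% of all tested genes.

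Between Arrested and PAt (0.121% of tested genes called), again none of the 6 was called. Gzmb was lower in every Arrested library than in every PAt library, with a log2 fold change of -0.85 (SE 0.17, adjusted p = 0.00503). Without Arrested replicate 3, the highest of its group, the log2 fold change was -1.06 and past the threshold (adjusted p = 5.7e-04). Prf1 was higher in all Arrested libraries (0.44, SE 0.14, adjusted p = 0.0746) and Nkg7 lower in all of them (-0.33, SE 0.15, adjusted p = 0.233). An unadjusted limma p under 0.05 was found for 3 of the 6 genes, Gzmb, Prf1 and Nkg7, and for 18.1% of all tested genes.

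Teff against Tnaive asks how the same genes stood between CD44hi and CD44lo cells without the Timer. Here 5 of the 6 tested genes were called, 4 higher and 1 lower in Teff, with 11.2% of all tested genes called. Nkg7 rose by a log2 fold change of 2.83 (SE 0.15, adjusted p = 5.2e-13), which is 7.09-fold, and Gzmb by 2.06 (SE 0.17, adjusted p = 1.4e-09), which is 4.16-fold. Srgn rose by 1.84 (SE 0.06, adjusted p = 3.4e-16) and Gzma by 1.22 (SE 0.14, adjusted p = 2.5e-07). Prf1 fell by 2.27 (SE 0.14, adjusted p = 8.1e-12). Lamp1 differed by -0.01 (SE 0.05, adjusted p = 0.878). The Gzma call was lost with quantile normalisation, where its log2 fold change was 0.95. That scaling moved the median of all genes by -0.10, and relative to this shift Gzma was at 1.06. Under it the share of higher among all called genes went from 79.6% to 63.1%. Teff also had the higher NK cell and CD8 T cell marker sums given above, which reached 10.67 and 11.997. Its sums for plasmacytoid dendritic cell (12.89 to 13.35), macrophage or monocyte (10.26 to 10.58) and B cell markers (11.48 to 12.15) were above those of Tnaive too. Mast cell or basophil markers were lower in Teff. The part of these cell types in the 5 changes was not tested.

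The persistent populations were then set against Teff, and 1 of 6 genes was called (8.31% of all tested genes). Gzmb had a log2 fold change of 5.65 (SE 0.15, adjusted p = 1.5e-17). The NK cell markers summed to 7.63 to 8.03 in the Timer-positive libraries and 10.37 to 10.67 in Teff. The part of other cell types in the differences from Teff was not tested. Srgn was above Teff in every persistent library (0.79, SE 0.05, adjusted p = 4.5e-11) and Gzma and Lamp1 below it in every one (-0.57, SE 0.12, adjusted p = 5.2e-04, and -0.22, SE 0.04, adjusted p = 8.2e-05), all 3 under the threshold on size. Nkg7 (-0.30, SE 0.13, adjusted p = 0.0519) and Prf1 (0.09, SE 0.12, adjusted p = 0.545) did not pass the test.

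PAt and Arrested cells were compared with both Timer-negative populations. Against Teff (6.88% of all tested genes called), 1 of 6 genes was called. This was Gzma, which was lower by a log2 fold change of -1.02 (SE 0.12, adjusted p = 5.3e-07), only just past the threshold. It was -0.93 without Teff replicate 2, -0.99 without PAt replicate 2, -0.94 without Arrested replicate 2 and -0.93 with quantile normalisation, none of which would be called. Srgn (-0.62, SE 0.05) and Nkg7 (-0.58, SE 0.13) were below Teff in every PAt and Arrested library, and Gzmb (0.37, SE 0.15, adjusted p = 0.0457) overlapped.

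Against Tnaive (7.9% of all tested genes called), 4 of the 6 genes were called in PAt and Arrested cells. Gzmb rose by 2.42 (SE 0.15, adjusted p = 1.1e-11), Nkg7 by 2.24 (SE 0.13, adjusted p = 2.7e-12) and Srgn by 1.22 (SE 0.05, adjusted p = 3.2e-14). Prf1 fell by 1.93 (SE 0.12, adjusted p = 1.3e-11). Gzma (0.20, SE 0.12, adjusted p = 0.192) and Lamp1 (0.11, SE 0.04, adjusted p = 0.0246) were not called. All 5 B cell markers were also called higher in PAt and Arrested (median log2 fold change 1.83), as were 2 of 7 plasmacytoid dendritic cell markers. Of 4 tested macrophage markers 1 was called higher and 1 lower, and of 7 NK cell markers 1 was called lower. The part of these markers in this comparison was not tested. Teff and PAt with Arrested share the Tnaive libraries as controls here, and their own values for the 3 genes that rose were 2.06 and 2.42 for Gzmb, 2.83 and 2.24 for Nkg7, and 1.84 and 1.22 for Srgn.

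**Figure D3:**
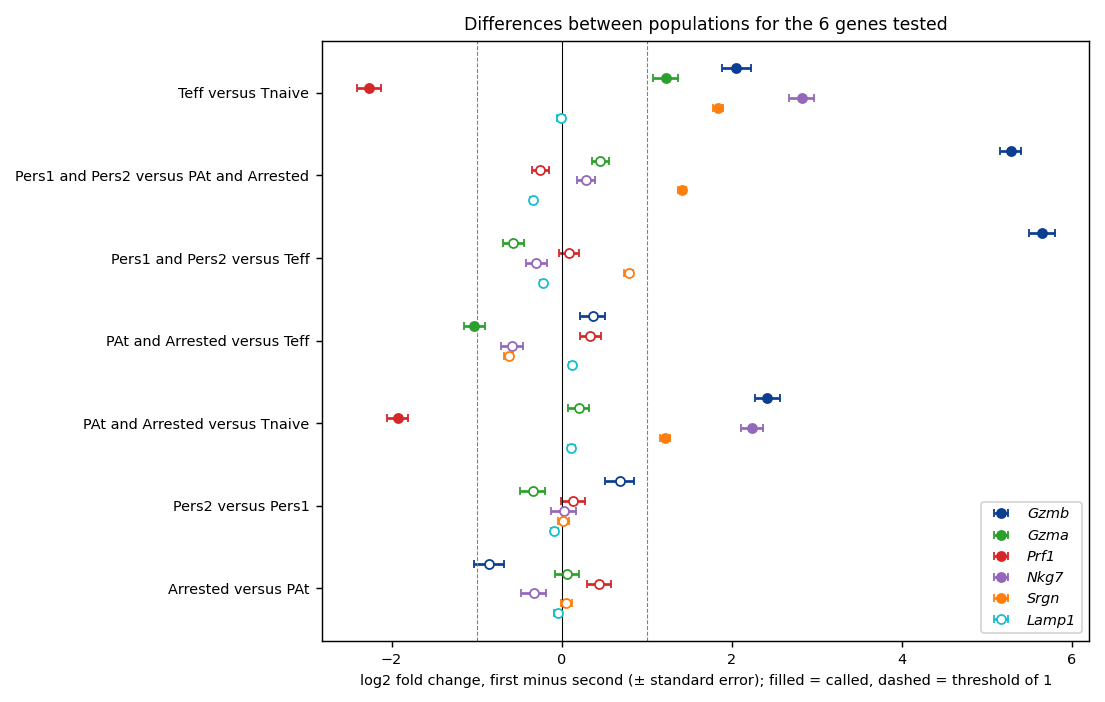
Log2 fold change (x axis, first population minus second, ± standard error) of the 6 tested granule genes in 7 comparisons (rows). Filled points were called and dashed lines mark the threshold of 1 in either direction. Gzmb lay at 5.28 and 5.65 in the comparisons of the persistent cells with PAt and Arrested and with Teff, while Prf1 lay at -2.27 and -1.93 in those with Tnaive.

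The shift from PAt and Arrested to the persistent cells was tested against the shift from Tnaive to Teff, as the difference of the 2 log2 fold changes. It was called for 3 of the 6 genes, with 8.42% of all tested genes called. Gzmb shifted more among Timer-positive cells (5.28) than among Timer-negative cells (2.06), a difference of 3.23 (SE 0.21, adjusted p = 5.3e-11). For Nkg7 the order was the reverse, 0.29 against 2.83, a difference of -2.54 (SE 0.18, adjusted p = 1.9e-10). Prf1 shifted by -0.25 against -2.27, a difference of 2.02 (SE 0.17, adjusted p = 3.1e-09). The differences of Gzma (-0.77, SE 0.18), Srgn (-0.43, SE 0.08) and Lamp1 (-0.33, SE 0.06) were under the threshold on size, with adjusted p-values of 0.00108, 8.1e-05 and 5.7e-05. The Timer-negative shift rests on Teff, whose NK cell markers summed to 10.37 to 10.67. Markers of CD8 T cells, plasmacytoid dendritic cells, macrophages and B cells were also higher there than in Tnaive. The part of these cell types was not tested.

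**Figure D4:**
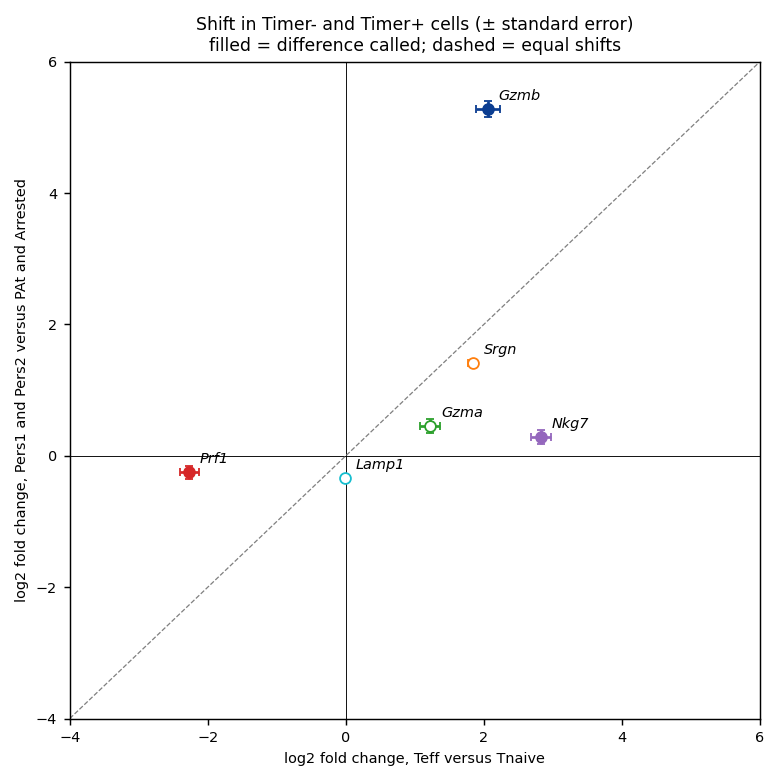
Log2 fold change of Teff versus Tnaive (x axis) against that of Pers1 and Pers2 versus PAt and Arrested (y axis) for the 6 tested granule genes, ± standard error. On the dashed line both shifts are equal, and filled points are genes whose difference was called. Gzmb (2.06 and 5.28) and Prf1 (-2.27 and -0.25) lay above the line, Nkg7 (2.83 and 0.29) below it and Srgn (1.84 and 1.41) near it.

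Other genes of the granule pathway were taken from 6 lists. Of 7 other granzyme genes, 3 were in the table and 2 could be tested. Gzmc, a neighbour of Gzmb on chromosome 14, had its highest mean, 7.74 ± 0.13 (SD, n = 3), in Pers2, followed by 7.25 ± 0.13 in Pers1. PAt was at 6.10 ± 0.09, Teff at 5.99 ± 0.07, Arrested at 5.81 ± 0.17 and Tnaive at 5.52 ± 0.12. It was higher in the persistent cells by 1.54 (SE 0.08, adjusted p = 5.5e-13) against PAt and Arrested and by 1.5 (SE 0.10, adjusted p = 3.7e-11) against Teff. Gzmm was not called in any comparison. Gzmf, below the filter, was at 2.21 and 2.29 in Pers1 and Pers2 and at 1.98 to 2.00 elsewhere.

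Of 14 genes of granule transport and exocytosis, 2 rose and none fell in the persistent cells against PAt and Arrested (median log2 fold change 0.45, against -0.01 for all tested genes, of which 7.51% were called). Stx11, a syntaxin needed for granule fusion, rose by 1.68 (SE 0.08, adjusted p = 9.7e-14), and Sytl2, a synaptotagmin-like protein that binds Rab27a, rose by 1.49 (SE 0.05, adjusted p = 1.2e-15). Against Teff, Sytl2 (2.00) and Sytl1 (1.99) rose and Lyst (-1.21), which controls the size of lysosomes, fell. Between Teff and Tnaive (11.2% of all tested genes called) the same list had 2 genes that rose, Stx11 (4.26) and Sytl3 (1.20), and 1 that fell, Lyst (-1.13). Stx11 was at 6.40 in Tnaive, 10.66 in Teff, 9.84 in PAt, 9.92 in Arrested, 11.64 in Pers1 and 11.48 in Pers2. In PAt and Arrested, Sytl1 was higher (1.48) and Sytl3 lower (-1.50) than in Teff. Against Tnaive, Stx11 (3.49) and Sytl1 (1.09) were higher there and Lyst (-1.78) lower.

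Of 13 granule proteases and lysosome membrane genes, 1 rose and 2 fell in the persistent cells against PAt and Arrested (median 0.17, with 7.51% of all tested genes called). Lamp2, the close relative of Lamp1, rose by 1.25 (SE 0.07, adjusted p = 2.9e-12). The fall of Ctsw, a cathepsin of cytotoxic cells, was -1.85 (SE 0.06, adjusted p = 2.3e-16), from means of 12.12 in PAt and 11.55 in Arrested to 9.76 in Pers1 and 10.22 in Pers2. Igf2r, the large mannose 6-phosphate receptor that carries granzymes and lysosomal enzymes to their compartment, was at -1.07 (SE 0.04, adjusted p = 1.3e-15). In Teff against Tnaive (11.2% of all tested genes called) 5 genes of this list rose and 2 fell, led by the cathepsins Ctsh (4.28), Ctsl (1.55) and Ctsb (1.35) and by Igf2r (-1.45). Ctsh (-3.88) and Ctsl (-3.0) were lower in the persistent cells than in Teff, while Igf2r (1.16) and Cst7 (1.12), a cathepsin inhibitor, were higher. PAt and Arrested cells likewise had lower Ctsh (-3.03) and Ctsl (-2.20) and higher Igf2r (2.24) and Ctsw (1.28) than Teff. Against Tnaive these cells had higher Cst7 (1.66) and Ctsh (1.26). Ctsh and Ctsl are also abundant in macrophages, whose markers summed to 10.26 to 10.58 in Teff, and their part was not tested.

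None of the 5 tested genes of the list of serpins, which holds granzyme inhibitors and related genes, was called between the persistent cells and PAt and Arrested (median 0.02, with 7.51% of all tested genes called). With limma 3 of 5 had an adjusted p under 0.05, beside 70.9% of all tested genes, and 3 of 5 an unadjusted one, beside 72.9%. Serpinb9, the inhibitor of granzyme B, was at 8.96 in both persistent populations, 9.42 in PAt and 9.24 in Arrested, a log2 fold change of -0.37 (SE 0.08). In Teff against Tnaive (11.2% of all tested genes called) 3 of 5 rose, which were Serpina3g (3.54), Serpinb1a (1.84) and Serpinb6b (1.07). Serpina3g, the largest of these, is known as an inhibitor of lysosomal cathepsins and not of granzymes. Serpina3g was also higher than in Teff in the persistent cells (1.13) and in PAt and Arrested (1.11), both calls being lost without Teff replicate 1, which left 0 of the 5 serpins called in either comparison. Against Tnaive, PAt and Arrested had higher Serpina3g (4.65) and Serpinb1a (1.11).

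The list of 10 other killing molecules holds receptors, such as Klrg1, Klrk1 and Slamf7, as well as killing ligands and cytokines. Of these 10 genes, 1 rose and 1 fell in the persistent cells against PAt and Arrested (median -0.30, with 7.51% of all tested genes called). Klrg1, an inhibitory receptor of terminally differentiated T and NK cells, rose by 2.04 (SE 0.08, adjusted p = 4.4e-15), and Lta, which encodes lymphotoxin alpha, was at -1.36 (SE 0.06, adjusted p = 1.6e-14). Against Teff (8.31% of all tested genes called) 2 rose and 3 fell, led by Klrg1 (4.85), Klrk1 (-2.76), Slamf7 (-1.46) and Tnfsf10 (1.35), which encode receptors of cytotoxic cells and, for Tnfsf10, the death ligand TRAIL. Klrk1 (2.97), Slamf7 (2.95) and Ifng (2.76) were the 3 genes of this list that rose in Teff against Tnaive (11.2% of all tested genes called). In PAt and Arrested against Teff (6.88% of all tested genes called) 3 rose and 2 fell, led by Klrg1 (2.81), Klrk1 (-2.55), Lta (1.61) and Slamf7 (-1.59). Against Tnaive (7.9% of all tested genes called) 4 rose and 1 fell there, led by Klrg1 (2.85), Ifng (2.08), Lta (1.72) and Slamf7 (1.37). Klrk1, Slamf7 and Ifng are also expressed by NK cells, whose 8 markers summed to 10.37 to 10.67 in Teff, above all other populations, and their part in the differences of this list from Teff was not tested.

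Of 10 transcription factors of the cytotoxic programme, 3 rose and none fell in the persistent cells against PAt and Arrested (median 0.30, with 7.51% of all tested genes called). Prdm1, which encodes Blimp-1, rose by 2.97 (SE 0.06, adjusted p = 1.3e-19), Tbx21, which encodes T-bet, by 1.59 (SE 0.10, adjusted p = 1.4e-11) and Runx3 by 1.18 (SE 0.05, adjusted p = 1.1e-14). Mean Prdm1 levels were 12.36 (Pers1) and 12.53 (Pers2), above those of PAt (9.56), Arrested (9.40), Teff (8.84) and Tnaive (8.79). Tbx21 was at 9.24 in Pers1, 8.98 in Teff and 8.78 in Pers2, above PAt (7.36), Arrested (7.49) and Tnaive (5.49). Against Teff (8.31% of all tested genes called) 2 factors rose and 3 fell in the persistent cells, led by Prdm1 (3.61), Zeb2 (-2.16), Hopx (1.96) and Eomes (-1.91). In Teff against Tnaive (11.2% of all tested genes called) 4 rose and 1 fell, led by Bhlhe40 (4.44), Tbx21 (3.49), Zeb2 (2.97) and Hopx (1.61). Eomes, a T-box factor, was highest in Tnaive (9.13) and was at 7.88 in Teff, 6.99 in PAt and 6.76 in Arrested, with the lowest means in Pers1 (5.97) and Pers2 (5.96). Prf1 means were 9.64 in Tnaive, 7.37 in Teff and 7.40 to 7.93 in the Timer-positive populations, and a link between Eomes and Prf1 was not tested. In PAt and Arrested, Zeb2 (-2.29), Id2 (-1.59) and Tbx21 (-1.56) were lower and Hopx (1.49) was higher than in Teff. Against Tnaive (7.9% of all tested genes called) 3 rose and 2 fell there, led by Bhlhe40 (4.23), Hopx (3.10), Eomes (-2.25) and Tbx21 (1.93). Eomes is itself one of the 8 NK cell markers, and NK cells, whose markers summed to 10.37 to 10.67 in Teff, and plasmacytoid dendritic cells, whose markers summed to 12.89 to 13.35 there, also express several of these factors. Their part in the differences from Teff was not tested.

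The difference between both shifts was called for further genes of each list. Gzmc (1.06), Sytl2 (1.72), Klrg1 (2.00) and Prdm1 (2.91) shifted more towards the persistent cells than towards Teff. Stx11 (-2.58), Ctsh (-5.14), Ctsl (-2.35), Serpina3g (-3.52), Serpinb1a (-1.80), Klrk1 (-3.18), Slamf7 (-2.82), Ifng (-2.38), Bhlhe40 (-4.63), Zeb2 (-2.84) and Tbx21 (-1.91) had the larger shift among Timer-negative cells. That shift rests on Teff, where NK cell, plasmacytoid dendritic cell and macrophage marker sums were highest, and their part in these differences was not tested. No gene of the 6 lists was called in Pers2 against Pers1 or in Arrested against PAt, where limma gave 20 and 19 of the 54 tested genes an unadjusted p under 0.05, beside 24.0% and 18.1% of all tested genes.

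**Figure D5:**
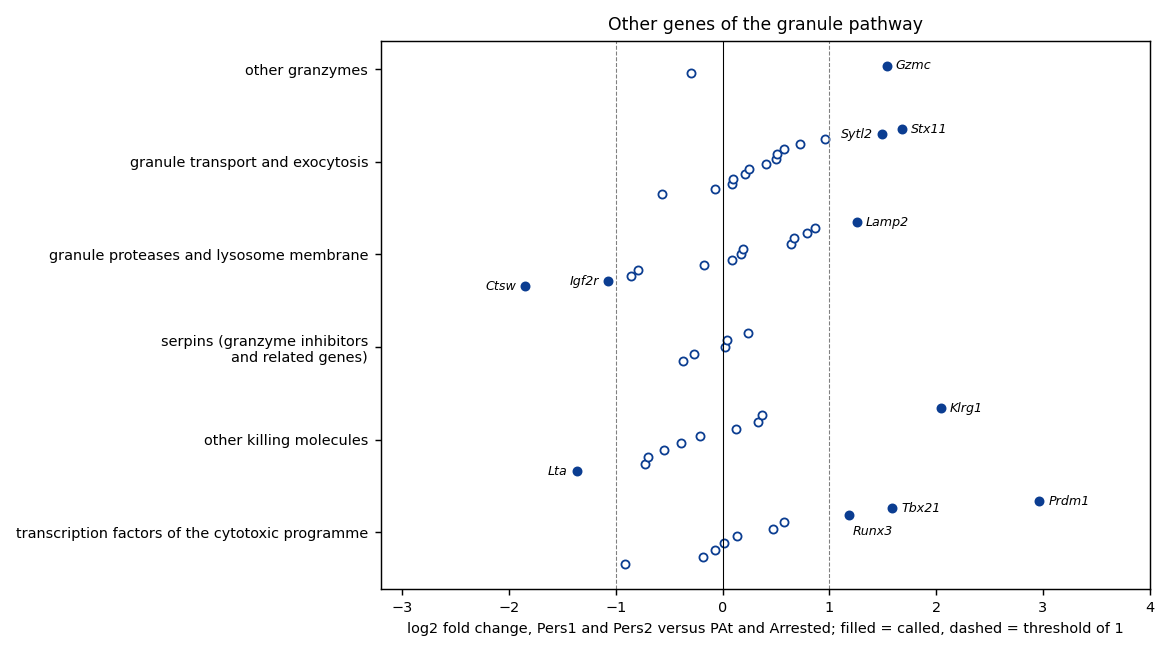
Log2 fold change of Pers1 and Pers2 versus PAt and Arrested (x axis) for the tested genes of 6 lists of the granule pathway (rows). Each point is a gene, filled and named where called, and dashed lines mark the threshold of 1 in either direction. Prdm1 (2.97) and Klrg1 (2.04) lay farthest to the right and Ctsw (-1.85) farthest to the left.

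The genes with the most similar levels were found by Pearson correlation over the 18 libraries, among all tested genes. Since the libraries fall into 6 populations, these values mostly follow the population means and are given as a description. Gzmb was most like Prdx4 (r = 0.990), Spcs2 (0.989) and Agpat4 (0.988), and Srgn was most like Ndfip1 (0.998), Icos (0.998) and Tpx2 (0.997). Nkg7 was most like Inppl1 (0.981), Ptpn13 (0.980) and Ptms (0.979), and Prf1 was most like Npc2 (0.974), Polr1a (0.957) and Gemin5 (0.951). The most similar genes to Gzma were Themis2 (0.954), 5430427O19Rik (0.945) and Ddx24 (0.939), and those to Lamp1 were Ms4a4c (0.957), Top3b (0.938) and Mllt3 (0.938). Gzmk, which is close to the bottom of the scale, was most like Lrrc25 (0.890), Tnfrsf23 (0.887) and Map3k6 (0.854). Among the granule genes themselves, Gzmb and Srgn had r = 0.906, Prf1 and Nkg7 -0.962, and Gzmb and Gzma 0.336. On deviations from the population means, which leave out the differences between populations, these were 0.433, 0.0464 and 0.732. Within populations, the libraries with more Gzmb therefore tended to have more Gzma. Replicate 3 was the highest library for both genes in Pers1, Pers2 and Arrested, and replicate 2 in Tnaive, with no such match in PAt and Teff. A deviation shared by libraries with the same number, described below, cannot be told apart from a relation between these genes.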

How the data were processed

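RNA of sorted cells was extracted by the authors with the PicoPure kit. Per the paper and the submitters' processing notes, stranded mRNA libraries (TruSeq) were sequenced as paired-end reads of 100 bp on the HiSeq and processed with CASAVA 1.8.2 and FastQC 0.11.2. Reads were aligned with TopHat2 2.0.9 to mm10, to which the Timer gene was added or not, and analysed with DESeq2. The read counter and its use of strand are not given in the sources used here. The authors deposited log2 normalised counts of 15402 genes in 18 libraries, from -0.02 to 18.89, in the form of a regularised log transform. Counts and depths were not analysed here. All 18 columns were matched to samples by name, and 22 rows whose symbols are dates were not named.

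No further normalisation or pseudocount was applied. Tests were run on 13190 genes whose mean log2 value reached 3, and 2212 were left out. A linear model of the 6 populations was fitted with limma 3.58.1 (R 4.3.3; trended variance, 12 residual degrees of freedom). Calls needed an adjusted p (Benjamini-Hochberg) under 0.05 together with a log2 fold change over 1 in size, the study's thresholds. On simulated data in which 200 of 13190 genes had a true log2 difference of 1.5 or 2, the model recovered 100% of them, with 0 to 3 false calls, in Teff versus Tnaive, in Pers1 and Pers2 versus PAt and Arrested, and in Pers2 versus Pers1. The simulated differences lay above the threshold of 1, and the noise was drawn independently for each library. The simulation is therefore a check of the code only and no support for the calls made here. The paper's figure legend gives 3 groups, each pooled from 3 mice, without saying which libraries share a pool, and the labels do not say so either. The main fit takes the libraries as unpaired, so the p-values measure the spread between libraries.

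The 7 genes and the pathway, marker and motif lists were chosen with earlier results of these data known. All 7 genes are named. From each pathway list every called gene is named, or the 4 with the largest fold change where more than 4 were called, and for each of the 7 genes the 3 tested genes with the highest Pearson correlation. Gzmf, Serpinb9 and other genes named as markers or with uncalled values fall outside that rule, and were named after their values were seen. Gene positions came from GENCODE vM21 (GRCm38) and promoter windows from RefSeq (GRCm38.p6), where all 7 genes were matched. Alternatives were a filter at a mean of 6 or none, only the populations compared, no variance trend, median centring, quantile normalisation, no threshold on size, a replicate block and leaving out each library. Figures were drawn with matplotlib 3.10.9 in Python 3.11.15.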

Additional observations from a re-analysis of the deposited data

Results flagged for a closer look

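For 3 of the 6 tested granule genes, the shift among Timer-positive cells (Pers1 and Pers2 minus PAt and Arrested) differed from the shift among Timer-negative cells (Teff minus Tnaive), as tested by the difference itself in limma across all 18 libraries. Gzmb, the granzyme B gene, had a difference of 3.23 in log2 (5.28 against 2.06, SE 0.21, adjusted p = 5.3e-11). Prf1, the perforin gene, had a difference of 2.02 (-0.25 against -2.27, SE 0.17, adjusted p = 3.1e-09). Nkg7 had a difference of -2.54 (0.29 against 2.83, SE 0.18, adjusted p = 1.9e-10). Leaving out any 1 library kept these between 3.07 and 3.34 for Gzmb, 1.94 and 2.14 for Prf1, and -2.76 and -2.41 for Nkg7, all called. The levels behind them show where the populations part. Prf1 stood at 9.64 ± 0.12 (SD, n = 3) in Tnaive and 7.37 to 7.93 in the means of the 5 other populations, and Nkg7 at 6.80 ± 0.39 in Tnaive and 8.87 to 9.62 in the others. The Timer-negative shift rests on the Teff libraries, whose NK cell markers summed to 10.37 to 10.67 (7.63 to 9.53 elsewhere). Their CD8 T cell markers summed to between 11.511 and 11.997 (9.65 to 10.70 elsewhere). Sums of plasmacytoid dendritic cell, macrophage or monocyte and B cell markers were also higher in Teff than in Tnaive. The part of these cell types in the differences was not tested.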

How the results depend on the processing

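Precision rests on 3 libraries per population, since depth is unknown, and the transform draws low genes such as Gzma and Gzmk together. With no threshold on the fold change, the number of granule genes called of 6 was 6 for the persistent cells against PAt and Arrested (70.9% of all tested genes), 4 against Teff (58.7%), 6 for PAt and Arrested against Teff (52.7%), 5 against Tnaive (50.7%), 5 for Teff against Tnaive (59.0%), 1 for Pers2 against Pers1 (10.6%), 1 for Arrested against PAt (5.04%) and 6 for the difference of shifts (48.7%). For PAt and Arrested against Teff the count was 0 with a filter at a mean of 6, where Gzma was not tested, and 0 with quantile normalisation. Leaving out single libraries gave counts from 0 to 1 in that comparison (0 without replicate 2 of Teff, PAt or Arrested) and from 0 to 1 in Arrested against PAt (1 without Arrested replicate 3). The cause of these changes was not tested. Quantile normalisation changed the split of all called genes in the difference of shifts from 200 higher and 910 lower to 35.3% higher. It moved the median of all genes by -0.10 in Teff against Tnaive, where Gzma was at 1.06 relative to that shift, and by less than 0.1 in size in the other comparisons.

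Uncalled fold changes near 0 turned sign without single libraries. Over the fits that each left out 1 library, they ranged from -0.0299 to 0.00425 for Lamp1 in Teff against Tnaive, from -0.0634 to 0.113 for Nkg7 and from -0.0212 to 0.0601 for Srgn in Pers2 against Pers1, and from -0.0199 to 0.233 for Gzma and from -0.0685 to 0.0112 for Lamp1 in Arrested against PAt. No other alternative turned the sign of a fold change of the 6 tested genes. The fit on only the populations compared does not exist for the difference of shifts, which uses all of them.

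Replicate numbers are shared between populations, without a statement that a number marks the same pool. Deviations from the population means had a median correlation of 0.166 over 45 pairs with the same number (-0.206 to 0.436, 32 over 0.1) and -0.064 over 90 pairs with different numbers, and 17 of 18 libraries correlated best with their own number, a hint from the data and not from the design. With a replicate block, all tested genes called were 992 against 990 for the persistent cells against PAt and Arrested, and the calls among the 6 granule genes did not change in any comparison.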
